A study of Arabidopsis thaliana with 36 samples.

Results

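Genes of nitrate uptake and assimilation in Arabidopsis thaliana, 9 in number, were followed through the wounding of the hypocotyl, the seedling stem below the cotyledons, in a study of adventitious root formation. The genes were chosen by locus ID for their known roles, with earlier results of these data known: the transporters NRT1.1 (AT1G12110) and NRT2.1 (AT1G08090), the nitrate reductases NIA1 (AT1G77760) and NIA2 (AT1G37130), the nitrite reductase NIR1 (AT2G15620), the cofactor and reductant enzymes UPM1 (AT5G40850) and G6PD3 (AT1G24280), and the repressors HRS1 (AT1G13300) and HHO2 (AT1G68670). They are 9 of the 32833 loci counted, and 9 of 9 passed the filter on low counts that left 19819 genes for testing. Messenger RNA was counted by sequencing the 3′ end of each transcript (QuantSeq, forward) in 36 libraries. Wild-type (WT) Col-0 seedlings and the ahk3 ahk4 double mutant, which lacks a pair of the cytokinin receptor kinases, were excised above the root-shoot junction. Hypocotyl segments of 2 to 3 mm were taken from the basal end, next to the wound, and from the medial part, at 0, 8 and 16 h after wounding. Seedlings of every group had been stratified for 3 days and grown for 5 days in low light, and each of the 12 groups of genotype, region and time had 3 biological replicates. The sources used here give neither the mutant alleles nor the number of seedlings per library. The 0 h libraries are labelled as 0 h after wounding. Unwounded segments were not sampled at 8 or 16 h in these groups, and the effects of wounding and of the hour of day cannot be told apart.

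Nitrate is a nitrogen source that plants take up through membrane transporters and then reduce inside the cell. NRT1.1 is a dual-affinity nitrate transporter that is also a nitrate sensor and moves auxin, and NRT2.1 is a main carrier of high-affinity uptake in roots. Nitrate reductase turns nitrate into nitrite in the cytosol, and nitrite reductase turns nitrite into ammonium in the plastid with electrons from ferredoxin. Nitrite reductase needs siroheme, whose synthesis branches off at UPM1, and in tissue that is not green the plastid takes NADPH for ferredoxin reduction from the oxidative pentose phosphate pathway, which G6PD3 opens. In roots nitrate itself induces most of these genes, and HRS1 and HHO2, GARP-type repressors of the NIGT1 family, act in the feedback on nitrate responses.

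The 250 bases before the annotated gene start are shown for the 5 assimilation genes, which moved together over the groups, and for HRS1, which holds both elements that its own family binds. Sequences and coordinates are those of RefSeq TAIR10.1, joined by locus ID, since the count files carry no coordinates and no genome build. Capitals mark GAATC, and in HRS1 also the palindrome GAATATTC, on either strand.
NIA1 (chr1:29239485-29239734, minus strand): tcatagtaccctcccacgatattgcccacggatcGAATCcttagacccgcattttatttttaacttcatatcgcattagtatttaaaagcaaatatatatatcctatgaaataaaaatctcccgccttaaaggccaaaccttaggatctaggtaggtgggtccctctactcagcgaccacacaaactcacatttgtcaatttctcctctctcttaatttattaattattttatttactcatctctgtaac
NIA2 (chr1:14158202-14158451, plus strand): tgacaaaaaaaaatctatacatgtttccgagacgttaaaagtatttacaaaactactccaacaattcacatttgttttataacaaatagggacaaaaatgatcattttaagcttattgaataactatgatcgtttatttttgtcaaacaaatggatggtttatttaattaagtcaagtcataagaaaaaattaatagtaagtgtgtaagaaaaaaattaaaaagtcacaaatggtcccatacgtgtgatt
NIR1 (chr2:6810145-6810394, plus strand): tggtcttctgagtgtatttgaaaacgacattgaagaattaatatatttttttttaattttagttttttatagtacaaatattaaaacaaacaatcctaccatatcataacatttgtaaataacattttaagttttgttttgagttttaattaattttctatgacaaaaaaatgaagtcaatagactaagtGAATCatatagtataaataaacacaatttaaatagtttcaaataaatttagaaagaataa
UPM1 (chr5:16365650-16365899, plus strand): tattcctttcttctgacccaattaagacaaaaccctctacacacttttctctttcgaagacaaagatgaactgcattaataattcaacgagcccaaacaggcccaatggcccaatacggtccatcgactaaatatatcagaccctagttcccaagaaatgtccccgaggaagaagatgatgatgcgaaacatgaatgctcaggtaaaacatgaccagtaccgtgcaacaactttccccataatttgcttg
G6PD3 (chr1:8609088-8609337, plus strand): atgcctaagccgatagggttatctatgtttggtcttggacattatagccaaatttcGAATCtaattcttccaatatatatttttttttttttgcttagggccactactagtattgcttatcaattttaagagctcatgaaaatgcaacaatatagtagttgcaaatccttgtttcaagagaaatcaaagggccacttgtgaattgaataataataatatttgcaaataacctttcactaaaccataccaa
HRS1 (chr1:4556628-4556877, plus strand): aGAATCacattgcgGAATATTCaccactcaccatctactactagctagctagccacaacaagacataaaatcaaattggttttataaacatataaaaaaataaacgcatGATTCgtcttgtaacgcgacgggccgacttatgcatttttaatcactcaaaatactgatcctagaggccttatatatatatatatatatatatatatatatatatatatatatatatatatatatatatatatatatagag
GAATC stood in 5 of the 9 windows, those of NRT2.1, NIA1, NIR1, G6PD3 and HRS1, and in 38.8% of the 27443 promoter windows of the same length. GAATATTC stood in 1 of 9 windows, that of HRS1, and in 0.86% of all windows. This element was added to the search after the sequences were read, so its count is a description and not a test. GACCCTT, the start of the nitrate-responsive element known from nitrite reductase promoters, and the G-box CACGTG, also a palindrome, were in 0 of 9 windows and in 1.13% and 6.49% of all windows. No match overlapped another. A match describes these letters only and is not a binding site.

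The libraries held 6136167 to 13557332 reads assigned to genes (median 9744646). AHK3 measured 1.33 to 8.71 CPM (counts per 1000000 assigned reads, on TMM-scaled library sizes) in the 18 mutant libraries and 43.9 to 164 CPM in the 18 WT libraries, and AHK4 measured 0.0986 to 2.2 CPM against 2.52 to 14.1 CPM. The 6 markers of root epidermis and root hairs summed to at most 0.554 CPM in basal and 4.22 CPM in medial libraries. Of these, COBL9 and EXPA18 had no count in any of the 36 libraries, and WER reached 4.22 CPM. Of 5 root meristem markers, SHR measured 18.06 to 63.35 CPM and SCR 4.47 to 17.4 CPM. PLT1, PLT2 and WOX5 reached at most 0.1015, 0.524 and 1.29 CPM. The markers of green tissue were present in every library and moved with the groups, with 6 markers summing to 1003 to 1065 CPM in WT basal segments at 0 h, 136 to 196 CPM at 8 h and 878 to 1621 CPM at 16 h. In WT medial segments the same sum was 2183 to 2657 CPM at 0 h, 794 to 1110.0 CPM at 8 h and 4079 to 5126 CPM at 16 h. Of 4 shoot epidermis markers the sum went from 244 to 318 CPM at 0 h to 49.4 to 63.6 CPM at 16 h in WT basal segments. The part of these shifts in the nitrate results was not tested, and in bulk segments fewer cells of a type and less RNA per cell cannot be told apart. Of the libraries, 3 stood apart for several nitrate genes and are named where they matter: replicate 2 of WT basal 0 h, of WT medial 0 h and of ahk3 ahk4 basal 8 h.

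Wounding was followed by higher transcript levels of the nitrate assimilation genes in each of the 4 series of segments. By 8 h NIA1, NIA2, NIR1, UPM1 and G6PD3 had risen in WT and ahk3 ahk4 and in basal and medial segments. NRT1.1 went the opposite way in the 2 regions of WT, up in the basal and down in the medial segments, and HHO2 fell by 16 h in every series. Counts were tested with edgeR's quasi-likelihood test, with Benjamini-Hochberg adjustment over all genes tested in a comparison and calls at an adjusted p under 0.05. Fold changes are given on the log2 scale ± SE, and levels in CPM. Each comparison was also run under 13 alternative settings, or 19 for interactions: 7 other models or sample sets, and each compared library left out. Low counts left 12 settings for some values of NIA1 and HRS1. In WT basal segments at 8 h against 0 h, 6 of 9 members rose and 0 fell, where 20.7% higher and 19.1% lower were called among all genes. In WT medial segments 6 rose and 2 fell (20.6% higher and 19.4% lower among all genes). In ahk3 ahk4 basal segments 7 rose and 1 fell (23.3% higher and 19.7% lower among all genes), and in ahk3 ahk4 medial segments 5 rose and 1 fell (20.7% higher and 17.3% lower among all genes). The median log2 fold change of the members was 1.26 in WT basal and 2.19 in ahk3 ahk4 basal segments, beside -0.03 and 0.02 over all genes tested. The 0 members that fell in WT basal segments by edgeR were also 0 at an unadjusted p under 0.05 and 0 by DESeq2.

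At 16 h against 0 h, 3 members were higher and 1 lower in WT basal segments (20.0% higher and 17.8% lower among all genes). The counts were 5 higher and 2 lower in WT medial segments (21.3% higher and 18.0% lower among all genes), 7 and 1 in ahk3 ahk4 basal segments (24.7% higher and 22.2% lower) and 5 and 1 in ahk3 ahk4 medial segments (19.2% higher and 16.1% lower). From 8 to 16 h fewer members moved. WT basal segments had 0 higher and 1 lower (3.44% higher and 2.92% lower among all genes), and WT medial segments had 2 and 2 (10.4% higher and 7.94% lower). The ahk3 ahk4 basal segments had 1 higher and 1 lower (2.7% higher and 2.92% lower), and the ahk3 ahk4 medial segments had 0 and 0 by edgeR (5.04% higher and 5.81% lower). In that last comparison 2 members, UPM1 and HHO2, were lower at an unadjusted p under 0.05, and DESeq2 called 0. From 8 to 16 h in WT basal segments, 0 members were higher at an unadjusted p under 0.05 and 0 by DESeq2. There 5 were lower at an unadjusted p under 0.05 (NRT2.1, NIA1, NIR1, UPM1 and HHO2) and 1 by DESeq2. In the main fit only HHO2 was called lower, and the 2.92% of all genes belongs to that fit. No share of all genes was taken at an unadjusted p or with the compared groups fitted alone, so those counts lack a comparison. With the compared groups fitted alone, NRT2.1, NIA1, NIR1 and UPM1 were called lower there too, at adjusted p of 0.00137, 6.6e-05, 0.0357 and 0.00868, against 0.156, 0.243, 0.215 and 0.093 in the fit over all groups.

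**Figure D1:**
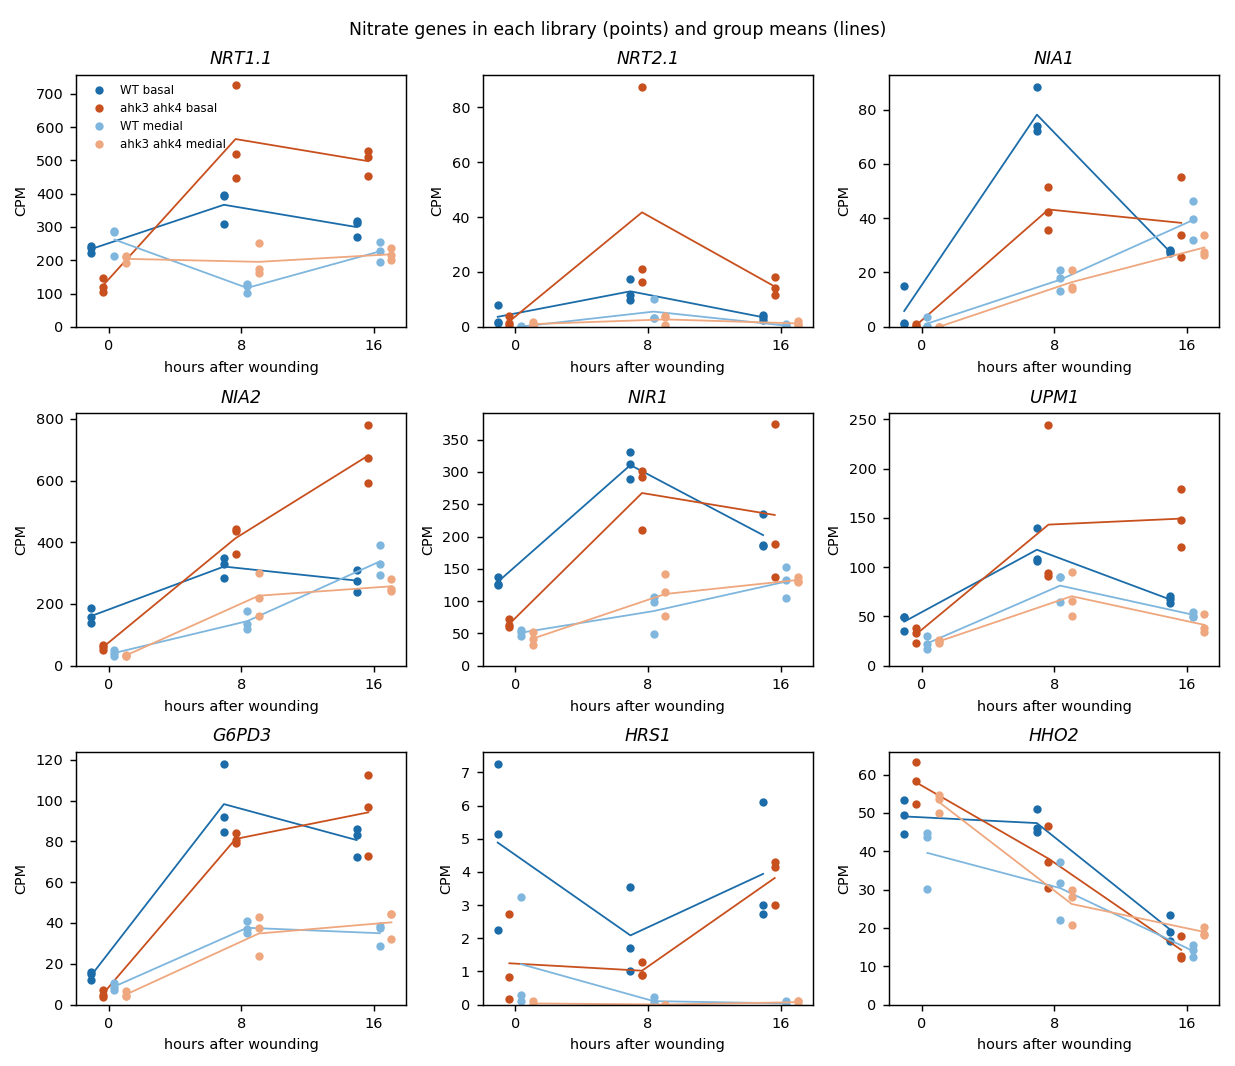
Level of each nitrate gene in each of the 36 libraries, in CPM on TMM library sizes (y axis), by hours after wounding (x axis, points shifted sideways by group); points are libraries, lines join means of 3 libraries, and colours give genotype and region. NIA1, NIA2, NIR1, UPM1 and G6PD3 have higher means at 8 h than at 0 h in all 4 series, and HHO2 has lower means at 16 h.

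NIA1, the minor of the 2 nitrate reductase genes in leaves of this species, was at or near 0 in most libraries at 0 h. NIA1 in WT basal segments measured 1.47, 15.1 and 0.873 CPM at 0 h, 74, 88.5 and 71.9 CPM at 8 h and 28.2, 27.1 and 28 CPM at 16 h. NIA1 in ahk3 ahk4 basal segments measured 0, 0.966 and 0.406 CPM at 0 h, 51.6, 35.6 and 42.4 CPM at 8 h and 33.9, 25.6 and 55.3 CPM at 16 h. No library at 8 or 16 h overlapped any library at 0 h in either genotype, and WT replicate 2 at 0 h was far above the other 2 of its group. In medial segments NIA1 measured 0, 3.46 and 0.147 CPM at 0 h, 18, 20.9 and 13.1 CPM at 8 h and 32, 46.2 and 39.6 CPM at 16 h in WT. The ahk3 ahk4 medial segments gave 0, 0 and 0 CPM at 0 h, 14.8, 13.8 and 20.8 CPM at 8 h and 33.6, 27.4 and 26.6 CPM at 16 h. At 0 h the medial level was thus 0 or near 0 except in WT replicate 2, and the libraries at 8 and 16 h were all at 13.1 CPM or more.

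NIA1 rose in WT basal segments at 8 h (3.75 ± 0.75, adjusted p = 0.000245) and in ahk3 ahk4 basal segments at 8 h (6.71 ± 0.99, adjusted p = 5.32e-06). The WT value was 6.06 (adjusted p = 3.14e-07) without replicate 2 at 0 h. The mutant value moved to 6.05 (adjusted p = 0.000114) without replicate 1 at 0 h and to 7.64 (adjusted p = 3.92e-05) without replicate 2 at 0 h, with adjusted p from 6.33e-13 to 0.000131 over the alternative settings tried. At 16 h the WT basal rise was 2.25 ± 0.71 (adjusted p = 0.0145), and the call was lost in 3 of 13 alternative settings, with adjusted p up to 0.15; without replicate 2 at 0 h it was 4.55 (adjusted p = 1.43e-05). The ahk3 ahk4 basal rise at 16 h was 6.53 ± 0.99 (adjusted p = 6.84e-06), 5.88 (adjusted p = 0.00014) without replicate 1 at 0 h and 7.46 (adjusted p = 4.68e-05) without replicate 2 at 0 h. The WT medial rise of NIA1 was 3.74 ± 0.83 at 8 h (adjusted p = 0.000806) and 4.92 ± 0.85 at 16 h (adjusted p = 4.92e-05); without replicate 2 at 0 h these were 7.79 (adjusted p = 2.26e-05) and 8.97 (adjusted p = 2.44e-06). In ahk3 ahk4 medial segments, with no count at 0 h, NIA1 was at least 157-fold higher at 8 h (adjusted p = 1.1e-05) and at least 287-fold higher at 16 h (adjusted p = 2.42e-06) (bounds use 3 counts per group of libraries as the floor).

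NIA2, the gene for most nitrate reductase activity in leaves of this species, was detected in every library at 0 h. NIA2 in WT basal segments measured 138, 188 and 157 CPM at 0 h, 330.4, 285 and 349 CPM at 8 h and 275, 312 and 240.4 CPM at 16 h. NIA2 in ahk3 ahk4 basal segments measured 50.7, 67.3 and 61.1 CPM at 0 h, 360.5, 444 and 435 CPM at 8 h and 780.5, 672 and 591 CPM at 16 h. The mutant started below every WT library and ended above every WT library. NIA2 in WT medial segments measured 40.2, 50.8 and 32.6 CPM at 0 h, 136, 177 and 120.0 CPM at 8 h and 390.5, 329.6 and 293 CPM at 16 h. NIA2 in ahk3 ahk4 medial segments measured 32.2, 32.7 and 35 CPM at 0 h, 299.8, 218 and 163 CPM at 8 h and 281, 242 and 249.5 CPM at 16 h. Every library at 8 or 16 h lay above every 0 h library of its own series.

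In WT basal segments NIA2 rose by 8 h (1.0 ± 0.21, adjusted p = 0.000216) and was still higher at 16 h (0.78 ± 0.21, adjusted p = 0.00327). In ahk3 ahk4 basal segments it rose by 8 h (2.79 ± 0.22, adjusted p = 2.22e-12) and stood at 3.51 ± 0.23 at 16 h (adjusted p = 1.47e-14). The mutant's further rise from 8 to 16 h (0.72 ± 0.21, adjusted p = 0.0338) lost its call in 6 of 13 alternative settings, with adjusted p up to 0.179. The WT medial rise of NIA2 was 1.81 ± 0.22 at 8 h (adjusted p = 1.95e-08), with 1.23 ± 0.21 more from 8 to 16 h (adjusted p = 8.11e-05). In ahk3 ahk4 medial segments it was 2.77 ± 0.22 at 8 h (adjusted p = 4.75e-12) and 2.95 ± 0.23 at 16 h (adjusted p = 9.95e-13). NIA1 and NIA2 are close paralogs, so reads that fit both may have been left uncounted, and the split between them is uncertain to that extent.

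NIR1, the single nitrite reductase gene, rose with the nitrate reductases. It ranged from 125 to 138 CPM at 0 h to 289 to 331 CPM at 8 h in WT basal segments (1.26 ± 0.28, adjusted p = 0.000341), and stood at 185 to 235 CPM at 16 h (0.64 ± 0.27, adjusted p = 0.0622, not called). In ahk3 ahk4 basal segments it measured 59.3 to 72.1 CPM at 0 h, 209 to 301 CPM at 8 h and 138 to 374 CPM at 16 h, higher at 8 h (2.05 ± 0.28, adjusted p = 2.72e-07) and again at 16 h (1.85 ± 0.28, adjusted p = 1.37e-06). The 3 mutant basal libraries at 16 h were spread widely, with replicate 3 far above the other 2. The share of reads outside genes was 3.91% to 4.61% at 0 h and 1.51% to 2.64% at 16 h in these libraries. Here and below it is taken over these reads plus those assigned to genes, leaving out reads with multiple alignments. With that share in the model the NIR1 rises were 2.92 (adjusted p = 2.19e-09) at 8 h and 2.84 (adjusted p = 1.38e-08) at 16 h. NIR1 in WT medial segments measured 45.6 to 55.3 CPM at 0 h, 48.7 to 107 CPM at 8 h and 106 to 153 CPM at 16 h, and replicate 3 at 8 h stayed within the 0 h range. The rise at 8 h (0.73 ± 0.28, adjusted p = 0.0337) lost its call in 8 of 13 alternative settings, with adjusted p up to 0.172, and that at 16 h was 1.35 ± 0.28 (adjusted p = 0.000174). In ahk3 ahk4 medial segments NIR1 measured 31.7 to 52.9 CPM at 0 h, 76.9 to 142 CPM at 8 h and 129.8 to 138 CPM at 16 h, with no overlap between 0 h and the later times, higher by 1.41 ± 0.28 at 8 h (adjusted p = 0.000115) and 1.67 ± 0.28 at 16 h (adjusted p = 1.09e-05).

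G6PD3, a plastid glucose-6-phosphate dehydrogenase, showed no overlap between 0 h and the later times in any of the 4 series. G6PD3 in WT basal segments measured 12.1, 15.8 and 15.1 CPM at 0 h, 84.7, 118 and 92.1 CPM at 8 h and 83.3, 72.4 and 86.2 CPM at 16 h. G6PD3 in ahk3 ahk4 basal segments measured 7.05, 3.86 and 4.67 CPM at 0 h, 80.5, 79 and 84.1 CPM at 8 h and 72.9, 97.1 and 113 CPM at 16 h. The levels of the 2 genotypes overlapped at 16 h and came close at 8 h, while at 0 h every mutant library lay below every WT library. G6PD3 in WT medial segments measured 7.1, 8.75 and 10.7 CPM at 0 h, 41.1, 36.8 and 35 CPM at 8 h and 38.6, 28.9 and 37.4 CPM at 16 h. G6PD3 in ahk3 ahk4 medial segments measured 4.12, 6.58 and 4.12 CPM at 0 h, 23.9, 43.2 and 37.4 CPM at 8 h and 32.1, 44.3 and 44.6 CPM at 16 h. The medial libraries at 8 and 16 h lay between the 0 h libraries and the basal ones at 8 and 16 h. Its 8 h rise was 2.78 ± 0.25 in WT basal (adjusted p = 3.58e-11), 3.95 ± 0.27 in ahk3 ahk4 basal (adjusted p = 7.58e-14), 2.09 ± 0.25 in WT medial (adjusted p = 2.15e-08) and 2.81 ± 0.26 in ahk3 ahk4 medial segments (adjusted p = 1.02e-10). At 16 h the rises were 2.49 ± 0.25, 4.16 ± 0.27, 1.98 ± 0.25 and 3.02 ± 0.26 in the same order, with adjusted p of 3.63e-10, 1.47e-14, 6e-08 and 1.84e-11. These 8 calls held in every alternative setting tried.

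UPM1, the uroporphyrinogen III methyltransferase of siroheme synthesis, peaked at 8 h in 3 of the 4 series by group mean. In WT basal segments it went from 35.3 to 49.6 CPM at 0 h to 106 to 139 CPM at 8 h (1.4 ± 0.29, adjusted p = 0.000168) and 63.4 to 70.7 CPM at 16 h (0.59 ± 0.29, adjusted p = 0.101, not called). UPM1 in ahk3 ahk4 basal segments measured 33.5, 22.9 and 38.4 CPM at 0 h, 93.7, 245 and 91.1 CPM at 8 h and 148, 179 and 121 CPM at 16 h. Replicate 2 at 8 h was far above the other 2 libraries, and the 16 h libraries lay above every 0 h library. The UPM1 rise in mutant basal segments was 2.17 ± 0.3 at 8 h (adjusted p = 2.05e-07), 1.55 (adjusted p = 1.08e-05) without that library. At 16 h it was 2.24 ± 0.3 (adjusted p = 1.11e-07). With the share of reads outside genes in the model these rises were 1.29 (adjusted p = 0.00315) and 1.26 (adjusted p = 0.00719). UPM1 in WT medial segments measured 16.8 to 29.9 CPM at 0 h, 64.5 to 89.7 CPM at 8 h and 49.4 to 55 CPM at 16 h, higher by 1.84 ± 0.3 at 8 h (adjusted p = 4.37e-06) and 1.19 ± 0.29 at 16 h (adjusted p = 0.00127). The ahk3 ahk4 medial segments measured 22.9 to 25.8 CPM at 0 h, 50.6 to 95.4 CPM at 8 h and 33.9 to 52.4 CPM at 16 h, higher by 1.51 ± 0.29 at 8 h (adjusted p = 8.11e-05). The 16 h rise there (0.75 ± 0.29, adjusted p = 0.0421) lost its call in 5 of 13 alternative settings, with adjusted p up to 0.205.

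**Figure D2:**
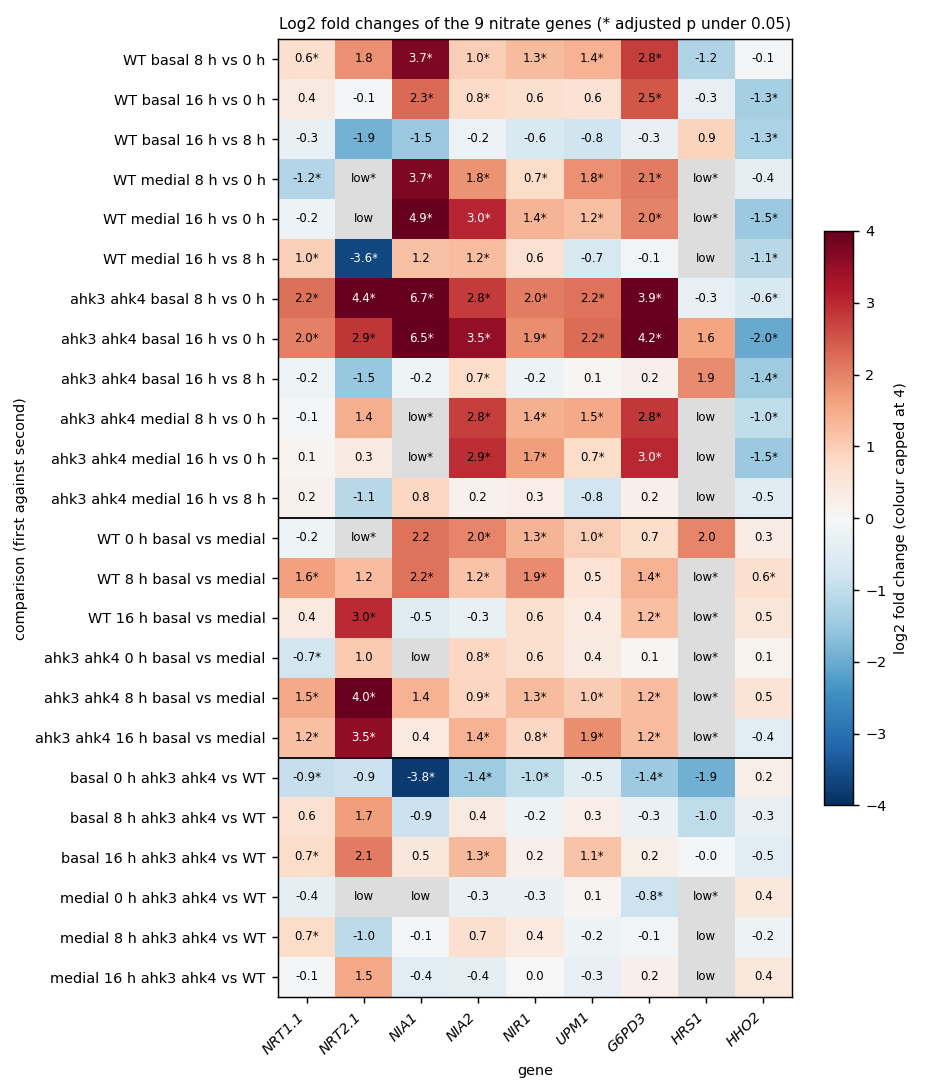
Fitted log2 fold changes of the 9 nitrate genes (columns) in the 24 comparisons between groups (lines of the grid: time, then region, then genotype), with asterisks for an adjusted p under 0.05 by edgeR's quasi-likelihood test; grey fields marked low have a group of 3 counts or fewer. The 5 assimilation genes have positive values wherever a value is given for 8 h against 0 h, up to 6.71 for NIA1 in ahk3 ahk4 basal segments.

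NRT1.1 differed from the assimilation genes in its regional pattern. NRT1.1 in WT basal segments measured 236, 244 and 222 CPM at 0 h, 309, 397 and 394 CPM at 8 h and 312, 269.7 and 318 CPM at 16 h. NRT1.1 in ahk3 ahk4 basal segments measured 121, 103 and 147 CPM at 0 h, 518, 727 and 447 CPM at 8 h and 529.5, 511 and 452 CPM at 16 h. The mutant was below every WT basal library at 0 h and above every WT basal library at 8 and 16 h. NRT1.1 in WT medial segments measured 212, 288 and 286 CPM at 0 h, 100.4, 128 and 122 CPM at 8 h and 229, 196 and 255 CPM at 16 h. NRT1.1 in ahk3 ahk4 medial segments measured 212, 209 and 192 CPM at 0 h, 252, 172 and 161 CPM at 8 h and 202, 237 and 215 CPM at 16 h. The WT medial libraries dipped at 8 h below every library at 0 and 16 h, whereas the mutant medial libraries at the 3 times overlapped. NRT1.1 rose in WT basal segments at 8 h (0.65 ± 0.2, adjusted p = 0.00895), and its 16 h value was 0.36 ± 0.2 (adjusted p = 0.16, not called). In ahk3 ahk4 basal segments it rose by 2.19 ± 0.21 at 8 h (adjusted p = 1.14e-10) and 2.01 ± 0.21 at 16 h (adjusted p = 5.06e-10). These values were 1.53 (adjusted p = 4.8e-07) and 1.24 (adjusted p = 5.8e-05) with the share of reads outside genes in the model. It fell in WT medial segments at 8 h (-1.17 ± 0.2, adjusted p = 1.48e-05) and rose from 8 to 16 h (0.96 ± 0.2, adjusted p = 0.000864). The mutant medial values were -0.07 ± 0.2 at 8 h and 0.09 ± 0.2 at 16 h against 0 h (adjusted p = 0.829 and 0.756).

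For NRT2.1, single libraries carried much of the level. NRT2.1 in WT basal segments measured 1.58, 7.94 and 1.4 CPM at 0 h, 11.5, 9.82 and 17.6 CPM at 8 h and 2.6, 3.64 and 4.21 CPM at 16 h. NRT2.1 in ahk3 ahk4 basal segments measured 4.04, 1.29 and 0.609 CPM at 0 h, 21.2, 87.6 and 16.4 CPM at 8 h and 18.2, 14.3 and 11.5 CPM at 16 h. Replicate 2 was the highest library at 0 h in WT and at 8 h in the mutant. In medial segments NRT2.1 measured 0.118, 0.108 and 0 CPM at 0 h, 10.04, 3.39 and 3.21 CPM at 8 h and 1.06, 0.205 and 0 CPM at 16 h in WT. The ahk3 ahk4 medial segments gave 1.78, 0.709 and 0.478 CPM at 0 h, 3.87, 0.648 and 3.57 CPM at 8 h and 1.96, 0.786 and 0.949 CPM at 16 h. The WT medial libraries at 8 h lay above those at 0 and 16 h, and the mutant medial times overlapped. In WT basal segments the 8 h value was 1.83 ± 0.74 (adjusted p = 0.0502, not called), and 3.11 (adjusted p = 0.00561) without replicate 2 at 0 h, with adjusted p from 0.00561 to 0.187 over the alternative settings. In ahk3 ahk4 basal segments NRT2.1 rose at 8 h (4.36 ± 0.82, adjusted p = 7.4e-05), at 3.22 (adjusted p = 0.00122) without replicate 2 at 8 h and 5.5 (adjusted p = 9.07e-05) without replicate 1 at 0 h. Its 16 h rise there (2.86 ± 0.79, adjusted p = 0.00366) was lost in 1 of 13 alternative settings, with adjusted p up to 0.166, and was 4.0 (adjusted p = 0.00169) without replicate 1 at 0 h.

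In WT medial segments NRT2.1 rose at 8 h (65.5-fold by counts, 95% interval 17.8 to 545, covering counting error only; adjusted p = 0.000264), with 5.14 (adjusted p = 0.00213) on the fitted log2 scale without replicate 1 at 8 h. It fell again from 8 to 16 h (-3.65 ± 0.91, adjusted p = 0.00515). That fall was -2.91 (adjusted p = 0.0349) without replicate 1 at 8 h, -5.74 (adjusted p = 0.0027) without replicate 1 at 16 h and -3.04 (adjusted p = 0.0299) without replicate 3 at 16 h. NRT2.2, the adjacent and close copy of NRT2.1, was listed with 0 counts in 36 libraries where NRT2.1 had 2638 counts in all. How reads common to both were counted is uncertain. An absent NRT2.2 transcript and uncounted common reads cannot be told apart here.

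The repressors HRS1 and HHO2 did not follow the assimilation genes. HHO2 measured 44.4, 53.4 and 49.4 CPM at 0 h, 50.9, 46 and 45.1 CPM at 8 h and 23.4, 19.1 and 16.6 CPM at 16 h in WT basal segments. HHO2 in ahk3 ahk4 basal segments measured 52.4, 58.4 and 63.3 CPM at 0 h, 46.5, 30.5 and 37.1 CPM at 8 h and 12.7, 18 and 12.1 CPM at 16 h. The 16 h libraries of both genotypes lay below every library at 0 and 8 h. HHO2 in WT medial segments measured 30.2, 44.8 and 43.7 CPM at 0 h, 37.3, 31.8 and 22.1 CPM at 8 h and 12.3, 15.6 and 14.2 CPM at 16 h. HHO2 in ahk3 ahk4 medial segments measured 53.7, 54.7 and 50.05 CPM at 0 h, 28.1, 20.7 and 29.9 CPM at 8 h and 18.4, 18.2 and 20.1 CPM at 16 h. HHO2 fell by 16 h in WT basal (-1.32 ± 0.22, adjusted p = 1.04e-05), WT medial (-1.5 ± 0.23, adjusted p = 1.48e-06), ahk3 ahk4 basal (-2.02 ± 0.23, adjusted p = 3.68e-09) and ahk3 ahk4 medial segments (-1.48 ± 0.22, adjusted p = 1.85e-06). At 8 h it had fallen in the mutant medial segments (-1.01 ± 0.22, adjusted p = 0.000382) and in the mutant basal segments (-0.61 ± 0.22, adjusted p = 0.0233), the latter lost in 5 of 13 alternative settings, with adjusted p up to 0.221. The WT values at 8 h, -0.05 ± 0.22 in basal and -0.38 ± 0.22 in medial segments, were not called. From 8 to 16 h HHO2 fell in WT basal (-1.26 ± 0.22, adjusted p = 0.000163), WT medial (-1.12 ± 0.22, adjusted p = 0.000498) and ahk3 ahk4 basal segments (-1.42 ± 0.22, adjusted p = 6.61e-05).

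HRS1 was barely detected outside the basal segments. HRS1 in WT basal segments measured 2.26, 7.24 and 5.15 CPM at 0 h, 1.0, 1.7 and 3.56 CPM at 8 h and 3.0, 6.1 and 2.71 CPM at 16 h. HRS1 in ahk3 ahk4 basal segments measured 0.829, 0.161 and 2.74 CPM at 0 h, 0.885, 0.887 and 1.29 CPM at 8 h and 4.29, 3.02 and 4.14 CPM at 16 h. The times overlapped in WT and, between 0 and 16 h, did not in the mutant. Of the medial libraries, WT replicate 2 at 0 h reached 3.24 CPM and the other 17 ranged from 0 to 0.294 CPM. HRS1 fell in WT medial segments at 8 h (13.4-fold by counts, 95% interval 4.22 to 68.5, adjusted p = 0.0131) and was still lower at 16 h (46.8-fold by counts, 95% interval 7.83 to 1903, adjusted p = 0.00233). Both falls rested on replicate 2 at 0 h: without it the fitted log2 values were -0.91 (adjusted p = 0.637) at 8 h and -2.34 (adjusted p = 0.227) at 16 h, where adjusted p over the alternatives ran from 0.00463 to 0.642 and from 0.000822 to 0.232. The 8 h value was -4.39 (adjusted p = 0.0159) without replicate 1 at 8 h, and the 16 h value -6.63 (adjusted p = 0.00356) without replicate 2 at 16 h. No HRS1 change over time was called in the basal segments, where the 16 h value in the mutant was 1.57 ± 0.86 (adjusted p = 0.136).

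At 8 h edgeR called 7 of the 9 nitrate genes higher at the basal end, next to the wound, than in the medial part in each genotype. The sets differed: NRT1.1, NIA2, NIR1, G6PD3 and HRS1 in both, NIA1 and HHO2 in WT alone, NRT2.1 and UPM1 in ahk3 ahk4 alone. The calls of NIA1 and HHO2 in WT and of NIA2 and UPM1 in ahk3 ahk4 were lost in some alternative settings. DESeq2 called 6 in WT and 7 in ahk3 ahk4. In WT, 4 of 9 members were higher and 0 lower in basal segments at 0 h (5.79% higher and 6.71% lower among all genes), 7 and 0 at 8 h (6.83% higher and 7.3% lower) and 3 and 0 at 16 h (9.88% higher and 10.9% lower). In ahk3 ahk4, 2 were higher and 1 lower at 0 h (5.15% higher and 7.23% lower among all genes), 7 and 0 at 8 h (5.88% higher and 7.35% lower) and 7 and 0 at 16 h (13.5% higher and 13.0% lower). In the 5 of these comparisons where edgeR called 0 members lower, 0 were lower at an unadjusted p under 0.05 and 0 by DESeq2. The 6 green tissue markers moved the other way, with sums of 598 to 1017 CPM in ahk3 ahk4 basal and 4013 to 6339 CPM in ahk3 ahk4 medial segments at 16 h, and the part of tissue make-up in the regional differences was not tested.

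At 0 h the WT basal level of NIA2 was above the medial level by 1.96 ± 0.22 on the log2 scale (adjusted p = 5.03e-08) and that of NIR1 by 1.34 ± 0.28 (adjusted p = 0.000791). UPM1 was higher by 0.98 ± 0.29 (adjusted p = 0.0204), a call lost in 5 of 13 alternative settings, with adjusted p up to 0.177. NRT2.1 was higher too (44.3-fold by counts, 95% interval 12 to 371, adjusted p = 0.00394), lost in 2 of 13 alternative settings, with adjusted p up to 0.13, and was at 4.01 (adjusted p = 0.054) on the fitted log2 scale without WT basal replicate 2. In the mutant at 0 h NIA2 was higher by 0.84 ± 0.21 (adjusted p = 0.00645). HRS1 was higher (41-fold by counts, 95% interval 6.91 to 1665, adjusted p = 0.0107; lost in 2 of 12 alternative settings, with adjusted p up to 0.104), with fitted values of 3.52 (adjusted p = 0.104) without basal replicate 3 and 6.67 (adjusted p = 0.0209) without medial replicate 2. NRT1.1 was lower in the mutant basal segments at 0 h (-0.72 ± 0.2, adjusted p = 0.0134), lost in 3 of 13 alternative settings, with adjusted p up to 0.164, and in WT the same difference was -0.16 ± 0.2 (adjusted p = 0.678).

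At 8 h in WT the basal level was higher for NRT1.1 (1.65 ± 0.21, adjusted p = 2.8e-07), NIA2 (1.16 ± 0.21, adjusted p = 0.000128), NIR1 (1.88 ± 0.28, adjusted p = 6.65e-06) and G6PD3 (1.38 ± 0.24, adjusted p = 5.24e-05). NIA1 was higher by 2.17 ± 0.69 (adjusted p = 0.0342), lost in 8 of 13 alternative settings, with adjusted p up to 0.127, although its basal libraries at 8 h were at 71.9 CPM or more and its medial libraries at 20.9 CPM or less. HRS1 was higher (21.7-fold by counts, 95% interval 7.02 to 108, adjusted p = 0.00766), with fitted values of 3.59 (adjusted p = 0.0495) without basal replicate 3 and 5.14 (adjusted p = 0.0131) without medial replicate 1. HHO2 was higher by 0.64 ± 0.22 (adjusted p = 0.0451). The HHO2 call was lost in 9 of 13 alternative settings, with adjusted p up to 0.259. In ahk3 ahk4 at 8 h the basal level was higher for NRT1.1 (1.53 ± 0.2, adjusted p = 1.3e-06), NIR1 (1.27 ± 0.28, adjusted p = 0.0013), G6PD3 (1.22 ± 0.24, adjusted p = 0.000335) and NIA2 (0.87 ± 0.21, adjusted p = 0.00394), the last lost in 1 of 13 alternative settings, with adjusted p up to 0.171. NRT2.1 was higher by 3.96 ± 0.79 (adjusted p = 0.000749) and by 2.81 (adjusted p = 0.0121) without basal replicate 2. UPM1 was higher by 1.02 ± 0.29 (adjusted p = 0.0131) but by 0.39 (adjusted p = 0.38) without basal replicate 2, and the call was lost in 3 of 13 alternative settings, with adjusted p up to 0.38. HRS1 was at least 11.2-fold higher (adjusted p = 0.00403).

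At 16 h the WT regions differed in fewer members. G6PD3 was higher in the basal segments by 1.21 ± 0.24 (adjusted p = 0.000326). HRS1 was higher (134-fold by counts, 95% interval 23.6 to 5348, adjusted p = 0.000253). Its fitted value was 8.29 (adjusted p = 0.00105) without medial replicate 2. NRT2.1 was higher by 2.99 ± 0.91 (adjusted p = 0.0192), 5.08 (adjusted p = 0.00656) without medial replicate 1 and 2.38 (adjusted p = 0.092) without medial replicate 3, and its call was lost in 3 of 13 alternative settings, with adjusted p up to 0.092. NIA1 and NIA2 no longer differed past the threshold (-0.5 ± 0.66 and -0.29 ± 0.21, adjusted p = 0.653 and 0.348). In ahk3 ahk4 at 16 h the basal level was higher for NIA2 (1.4 ± 0.21, adjusted p = 5.59e-06), UPM1 (1.85 ± 0.29, adjusted p = 1.17e-05) and G6PD3 (1.23 ± 0.24, adjusted p = 0.000179), which held in every alternative setting. UPM1 stood at 0.99 (adjusted p = 0.0464) with the share of reads outside genes in the model. It was also higher for NRT1.1 (1.19 ± 0.2), NRT2.1 (3.55 ± 0.82), NIR1 (0.81 ± 0.27) and HRS1 (54.8-fold by counts, 95% interval 14.8 to 458), with adjusted p of 3.16e-05, 0.00171, 0.0248 and 0.000557. These 4 calls were lost in 1, 1, 5 and 1 of 13 alternative settings, with adjusted p up to 0.101, 0.0812, 0.426 and 0.053. The share of reads outside genes moved with this comparison, at 1.51% to 2.64% in ahk3 ahk4 basal and 3.56% to 4.33% in ahk3 ahk4 medial libraries at 16 h. With it in the model the NRT1.1, NIR1 and HRS1 values were 0.53 (adjusted p = 0.101), 1.65 (adjusted p = 0.000166) and 4.48 (adjusted p = 0.053) on the fitted log2 scale.

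Between genotypes, edgeR called NRT1.1, NIA1, NIA2, NIR1 and G6PD3 lower in ahk3 ahk4 basal segments at 0 h. It called NRT1.1, NIA2 and UPM1 higher there at 16 h. Of these calls, only NIA2 and G6PD3 at 0 h and NIA2 at 16 h were kept in every alternative setting. At 0 h 0 of 9 members were higher and 5 lower in ahk3 ahk4 basal segments than in WT (0.843% higher and 2.24% lower among all genes), with a median log2 fold change of -1.0 beside -0.01 over all genes tested. At 8 h the counts were 0 and 0 (0.161% higher and 0.131% lower), and at 16 h 3 higher and 0 lower (2.3% higher and 2.65% lower). In medial segments 0 were higher and 2 lower at 0 h (2.61% higher and 3.16% lower among all genes), 1 and 0 at 8 h (1.9% higher and 0.363% lower), and 0 and 0 at 16 h (1.51% higher and 1.81% lower). Behind the counts of 0 by edgeR, at an unadjusted p under 0.05 NRT1.1 and NRT2.1 were higher in basal segments at 8 h, HHO2 lower in basal segments at 16 h and NRT2.1 higher in medial segments at 0 h, and 0 members in the other such directions; DESeq2 called 0 in each of these directions.

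At 0 h in basal segments NIA2 was lower in ahk3 ahk4, at -1.43 ± 0.21 on the log2 scale, with groups of 50.7 to 67.3 CPM in the mutant and 138 to 188 CPM in WT (adjusted p = 4.29e-05). G6PD3 was lower, at -1.45 ± 0.26, with 3.86 to 7.05 against 12.1 to 15.8 CPM (adjusted p = 0.000477). Both calls held in every alternative setting, and in both genes all 3 mutant libraries lay below all 3 WT libraries. NRT1.1 was lower, at -0.92 ± 0.2 (adjusted p = 0.00551). The NRT1.1 call was lost in 1 of 13 alternative settings, with adjusted p up to 0.0581. NIR1 was lower, at -1.0 ± 0.28 (adjusted p = 0.0341). The NIR1 call was lost in 7 of 13 alternative settings, with adjusted p up to 0.119. NIA1 was lower, at -3.82 ± 1.02 (adjusted p = 0.037), but -1.51 (adjusted p = 0.573) without WT replicate 2, and the groups overlapped at the low end. Its value was -3.16 (adjusted p = 0.175) without mutant replicate 1 and -4.74 (adjusted p = 0.059) without mutant replicate 2, and the call was lost in 7 of 12 alternative settings, with adjusted p up to 0.573. The shares of reads with multiple alignments were 44.2% to 60.3% in ahk3 ahk4 basal and 34.9% to 40.5% in WT basal libraries at 0 h, green tissue markers summed to 537 to 604 against 1003 to 1065 CPM and shoot epidermis markers to 464 to 601 against 244 to 318 CPM, and their part in these differences was not tested.

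At 16 h in basal segments NIA2 was higher in ahk3 ahk4 by 1.3 ± 0.21, with 591 to 780.5 CPM in the mutant and 240.4 to 312 CPM in WT (adjusted p = 0.000445), and this held in every alternative setting. UPM1 was higher by 1.15 ± 0.29, with 121 to 179 against 63.4 to 70.7 CPM (adjusted p = 0.0203). The UPM1 call was lost in 6 of 13 alternative settings, with adjusted p up to 0.366. NRT1.1 was higher by 0.73 ± 0.2, with 452 to 529.5 against 269.7 to 318 CPM (adjusted p = 0.0309). The NRT1.1 call was lost in 7 of 13 alternative settings, with adjusted p up to 0.484. In all 3 genes the libraries of the 2 genotypes did not overlap. The same held for 4 of 9 members in all at 16 h, and for 4 of 9 in basal segments at 8 h, where 0 were called. The share of all genes without overlap was not taken. The share of reads outside genes was 1.51% to 2.64% in the mutant and 2.98% to 3.30% in WT basal libraries at 16 h. With that share in the model the NRT1.1 and UPM1 values were 0.33 (adjusted p = 0.484) and 0.62 (adjusted p = 0.366). In medial segments at 0 h G6PD3 was lower in the mutant, at -0.84 ± 0.26 (adjusted p = 0.0496). The G6PD3 call was lost in 8 of 13 alternative settings, with adjusted p up to 0.259. HRS1 was lower there (39.5-fold by counts, 95% interval 6.6 to 1605, adjusted p = 0.0224), lost in 4 of 12 alternative settings, with adjusted p up to 0.526, with fitted values of -2.19 (adjusted p = 0.516) without WT replicate 2 and -6.63 (adjusted p = 0.047) without mutant replicate 2. At 8 h in medial segments NRT1.1 was higher in the mutant by 0.74 ± 0.2 (adjusted p = 0.0409), with 252, 172 and 161 CPM against 100.4, 128 and 122 CPM, lost in 8 of 13 alternative settings, with adjusted p up to 0.506.

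Whether the change after wounding itself differed between genotypes was tested as the change in ahk3 ahk4 minus the change in WT. From 0 to 8 h in basal segments 2 members differed (0.833% of all genes), with NIA2 at 1.79 ± 0.3 (adjusted p = 0.000783) and NRT1.1 at 1.54 ± 0.28 (adjusted p = 0.00313). Their 0 h levels differed too, with mutant minus WT at -1.43 for NIA2 and -0.92 for NRT1.1. At 8 h the same differences were 0.36 (adjusted p = 0.724) and 0.62 (adjusted p = 0.257), neither called by edgeR. From 0 to 16 h 4 members differed (2.4% of all genes). NIA2 stood at 2.74 ± 0.3 (adjusted p = 6.78e-07), with basal changes of 3.51 ± 0.23 in the mutant and 0.78 ± 0.21 in WT. NRT1.1 stood at 1.65 ± 0.28 (adjusted p = 0.00101), from changes of 2.01 ± 0.21 and 0.36 ± 0.2. G6PD3 stood at 1.67 ± 0.35 (adjusted p = 0.0066), from 4.16 ± 0.27 and 2.49 ± 0.25, with 0 h levels that also differed. UPM1 stood at 1.65 ± 0.41 (adjusted p = 0.0224). The UPM1 call was lost in 8 of 19 alternative settings, with adjusted p up to 0.368, and its value was 0.92 (adjusted p = 0.368) with the share of reads outside genes in the model. In medial segments 1 member differed from 0 to 8 h (3.07% of all genes), NRT1.1 at 1.1 ± 0.28 (adjusted p = 0.0252). The NRT1.1 call was lost in 7 of 19 alternative settings, with adjusted p up to 0.165. From 0 to 16 h 0 did by edgeR (4.49% of all genes), with 3 at an unadjusted p under 0.05, NIA1, G6PD3 and HRS1, and 2 by DESeq2.

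**Figure D3:**
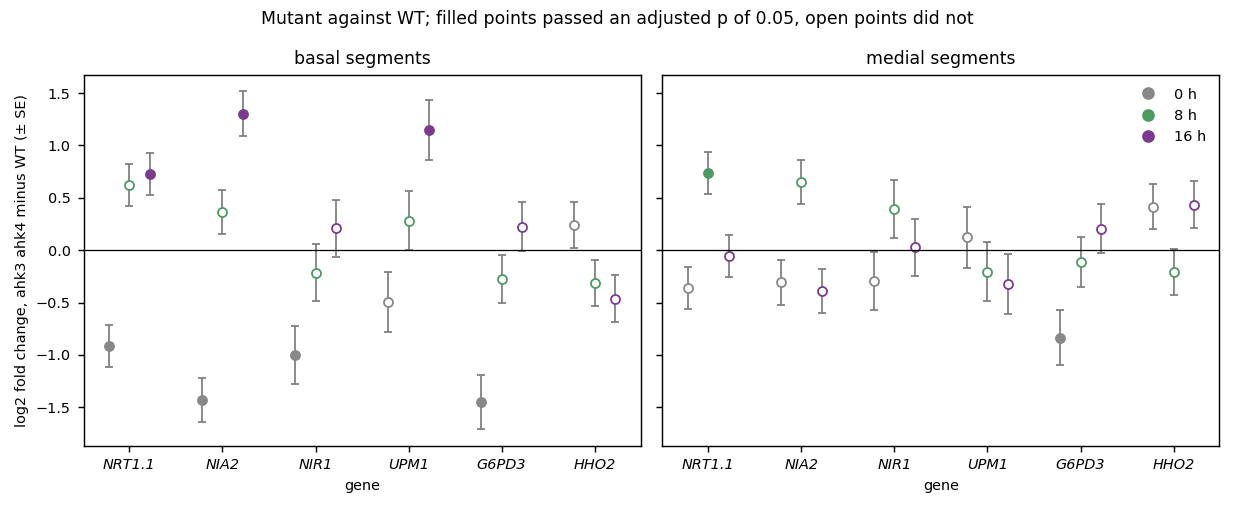
Log2 fold change of ahk3 ahk4 against WT (y axis) at 0, 8 and 16 h in basal and medial segments for 6 nitrate genes, leaving out NRT2.1, NIA1 and HRS1 with their low counts; bars are 1 SE, and filled points have an adjusted p under 0.05. In basal segments NIA2 goes from -1.43 at 0 h to 1.3 at 16 h, and NRT1.1 from -0.92 to 0.73.

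Whether basal and medial segments changed differently was tested as the basal change minus the medial change. In WT 1 member differed from 0 to 8 h (6.13% of all genes): NRT1.1 at 1.81 ± 0.28 (adjusted p = 7.07e-05), which rose in the basal and fell in the medial segments. From 0 to 16 h 2 differed (10.1% of all genes). NIA2 stood at -2.26 ± 0.3 (adjusted p = 3.2e-06): its medial level, lower at 0 h, rose by 3.03 ± 0.23 against 0.78 ± 0.21 in the basal segments. HRS1 stood at 4.59 ± 1.53 (adjusted p = 0.0494), lost in 11 of 19 alternative settings, with adjusted p up to 0.47, with 2.03 (adjusted p = 0.47) without WT medial replicate 2 at 0 h and 6.32 (adjusted p = 0.0433) without WT medial replicate 2 at 16 h. In ahk3 ahk4 1 member differed from 0 to 8 h (4.67% of all genes), NRT1.1 at 2.25 ± 0.29 (adjusted p = 3.47e-06). From 0 to 16 h 3 differed (17.0% of all genes): NRT1.1 at 1.91 ± 0.29 (adjusted p = 1.62e-05; lost in 1 of 19 alternative settings, with adjusted p up to 0.0859), UPM1 at 1.49 ± 0.41 (adjusted p = 0.0104; lost in 1 of 19 alternative settings, with adjusted p up to 0.887) and G6PD3 at 1.14 ± 0.36 (adjusted p = 0.0242; lost in 7 of 19 alternative settings, with adjusted p up to 0.148). For NRT1.1 and UPM1 that setting was the model with the share of reads outside genes, at 0.91 (adjusted p = 0.0859) and 0.21 (adjusted p = 0.887).

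Ranked by group mean, the 12 groups gave each gene a different order, and most neighbours in it overlapped. For NRT1.1 the top was ahk3 ahk4 basal at 8 h (564 ± 145 CPM, SD, n = 3) and at 16 h (498 ± 40.2 CPM), clear of the rest, and the bottom was ahk3 ahk4 basal at 0 h (124 ± 22.2 CPM) and WT medial at 8 h (117 ± 14.7 CPM). NIA2 had ahk3 ahk4 basal at 16 h alone at the top (681 ± 95.1 CPM), and its bottom 3 were ahk3 ahk4 basal (59.7 ± 8.38 CPM), WT medial (41.2 ± 9.11 CPM) and ahk3 ahk4 medial (33.3 ± 1.5 CPM) at 0 h. NIA1 had WT basal at 8 h alone at the top (78.1 ± 9.02 CPM). G6PD3 fell into the 4 basal groups at 8 and 16 h, then the 4 medial groups at those times. The 0 h groups came last: WT basal (14.3 ± 1.98 CPM), WT medial (8.86 ± 1.82 CPM) and the 2 mutant groups. Of the 11 neighbouring pairs, 7 overlapped for G6PD3, 9 each for NRT1.1, NIA1, NIA2, NIR1, UPM1 and HHO2, 10 for HRS1 and 11 for NRT2.1. For NRT2.1, whose means ran from 0.0755 to 41.7 CPM, no 2 neighbours were separated.

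Across the 12 group means on a log scale, which share libraries, depth and the common change with time, the assimilation genes ran together. Pearson's r was 0.96 between NIA1 and G6PD3, 0.94 between NIA1 and NIA2, 0.91 between NIA2 and NIR1 and 0.89 between UPM1 and G6PD3. NRT1.1 had r of 0.47 with NIA1, and HHO2 had r of -0.66 with NIA2 and -0.63 with NIA1. These values describe 12 groups and were not tested. Among 15570 other genes with at least 5 CPM in a group, the pattern most like that of G6PD3 was that of ENO1, a plastid enolase (r = 0.99). The closest patterns were those of TH8 for NIA1 (r = 0.98), AT1G68238 for NIA2 (r = 0.97), AT2G44370 for NIR1 (r = 0.96) and AT2G31390 for UPM1 (r = 0.97). For the transporters they were AT1G05670 for NRT1.1 (r = 0.92), followed by PUB23 (r = 0.91) and XTH33 (r = 0.89), and AT3G22980 for NRT2.1 (r = 0.95). For the repressors they were AT3G25640 for HRS1 (r = 0.96) and ANNAT4, an annexin, for HHO2 (r = 0.96).

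**Figure D4:**
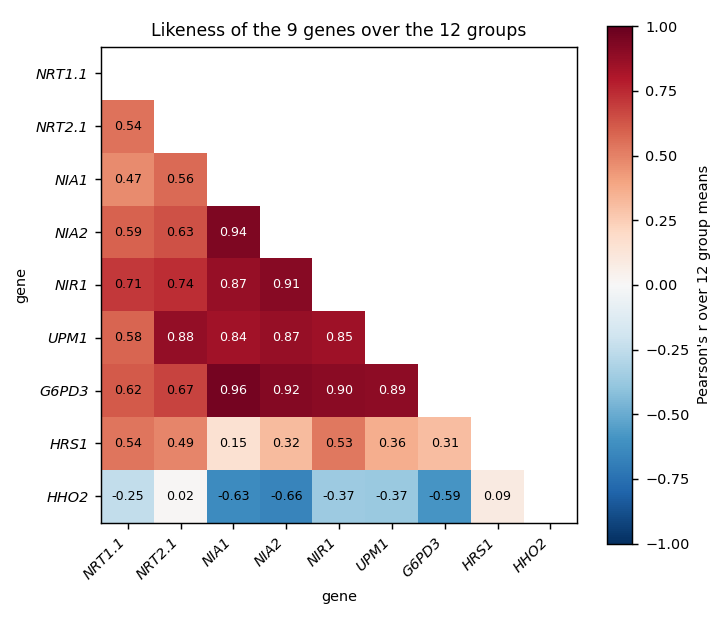
Pearson's r between the nitrate genes over the 12 group means of log2 CPM. NIA1, NIA2, NIR1, UPM1 and G6PD3 form a block of high r, with 0.96 between NIA1 and G6PD3, and HHO2 has negative r with NIA2 (-0.66).

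Other genes of nitrogen metabolism were read as 4 lists of known roles. Of 21 genes of nitrate transport and sensing, 17 were tested. At 8 h against 0 h 6 were higher and 5 lower in WT basal segments, 4 and 4 in WT medial, 6 and 4 in ahk3 ahk4 basal and 4 and 6 in ahk3 ahk4 medial segments. Of all genes 20.7%, 20.6%, 23.3% and 20.7% were higher and 19.1%, 19.4%, 19.7% and 17.3% lower in the same order. The list's median log2 fold changes in the same order were -0.01, 0.15, 0.06 and -0.18, beside -0.03, 0.0, 0.02 and 0.02 over all genes tested. NRT1.8, which unloads nitrate from the xylem, went from 0.790, 0.893 and 0.873 CPM at 0 h to 87, 69.7 and 72.1 CPM at 8 h in WT basal segments (6.46 ± 0.42, adjusted p = 5.71e-14), and in ahk3 ahk4 medial segments from no count to 73.1, 24.2 and 26.3 CPM. NRT3.1, the partner protein that NRT2.1 needs for uptake, went from 9.81, 12.5 and 8.38 to 104, 131 and 163 CPM in WT basal segments (3.7 ± 0.35, adjusted p = 6.66e-11) and rose in ahk3 ahk4 basal segments (4.66 ± 0.37, adjusted p = 1.32e-12). NRT1.4, a carrier of the leaf petiole, fell in WT basal segments (-2.48 ± 0.23, adjusted p = 8.08e-11). At 8 h NRT3.1 was higher in basal than in medial segments in WT (2.29 ± 0.32, adjusted p = 2.29e-06) and in ahk3 ahk4 (1.78 ± 0.32, adjusted p = 0.000102).

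Among 14 genes of reductant and cofactor supply, 14 were tested. At 8 h 7 were higher and 1 lower in WT basal segments, 6 and 0 in WT medial, 8 and 1 in ahk3 ahk4 basal and 5 and 0 in ahk3 ahk4 medial segments, with medians of 0.69, 0.43, 0.68 and 0.26. In these 4 comparisons 20.6% to 23.3% of all genes were higher and 17.3% to 19.7% lower, with medians over all genes of -0.03, 0.0, 0.02 and 0.02. Behind both counts of 0 by edgeR were 0 genes at an unadjusted p under 0.05 and 0 by DESeq2. AT5G41670, a 6-phosphogluconate dehydrogenase family gene of the same pathway as G6PD3, rose by 2.49 ± 0.23 (adjusted p = 3.97e-11) in WT basal segments. FD3, a ferredoxin of tissue that is not green, rose by 2.09 ± 0.24 (adjusted p = 8.98e-09), and RFNR1, a root-type ferredoxin reductase, by 1.79 ± 0.26 (adjusted p = 8.83e-07). RFNR2, the other root-type reductase, was higher in basal than in medial segments at 8 h in WT (2.27 ± 0.27, adjusted p = 1.7e-07), while G6PD1 was lower (-2.67 ± 0.45, adjusted p = 4.25e-05).

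For ammonium uptake and assimilation 17 of 19 genes were tested. At 8 h 8 were higher and 2 lower in WT basal segments, 9 and 2 in WT medial, 11 and 2 in ahk3 ahk4 basal and 9 and 2 in ahk3 ahk4 medial segments, with medians of 0.79, 0.63, 1.49 and 1.4, where 20.6% to 23.3% of all genes were higher and 17.3% to 19.7% lower. The medians over all genes tested were -0.03, 0.0, 0.02 and 0.02 in the same order. GLN2, plastid glutamine synthetase, is both in this list and among the green tissue markers. GLU1, a ferredoxin-dependent glutamate synthase, went from 2.37, 2.98 and 3.75 to 26.4, 38.2 and 29.1 CPM in WT basal segments (3.35 ± 0.27, adjusted p = 2.64e-12), AMT1;1, an ammonium transporter, rose by 2.86 ± 0.28 (adjusted p = 2.45e-10), and ASN2, an asparagine synthetase, by 1.9 ± 0.25 (adjusted p = 7.71e-08). ASN2 was lower in mutant basal segments at 0 h. It measured 6.22, 10.1 and 5.58 CPM in ahk3 ahk4 and 36, 39.6 and 33.4 CPM in WT, without overlap (-2.33 ± 0.26, adjusted p = 5.31e-07, held in every alternative setting).

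Of 26 nitrogen regulators 24 were tested. At 8 h against 0 h the counts were 3 higher and 6 lower in WT basal segments, 2 and 5 in WT medial, 4 and 8 in ahk3 ahk4 basal and 6 and 6 in ahk3 ahk4 medial segments, with medians of -0.73, -0.52, -0.31 and -0.07. Of all genes 20.7%, 20.6%, 23.3% and 20.7% were higher and 19.1%, 19.4%, 19.7% and 17.3% lower in the same order. The medians over all genes tested were -0.03, 0.0, 0.02 and 0.02. In WT basal segments TGA1, a bZIP factor of the nitrate response, fell by 1.0 ± 0.23 (adjusted p = 0.000747), NLP9, of the NIN-like protein family, fell by 3.12 ± 0.78 (adjusted p = 0.00135), and LBD39, a repressor of nitrogen metabolism genes, rose by 0.84 ± 0.23 (adjusted p = 0.00418). TGA1 also fell in WT medial segments (-2.41 ± 0.25, adjusted p = 1.24e-09) and was higher in basal than in medial segments at 8 h in WT (2.6 ± 0.25, adjusted p = 3.01e-09) and ahk3 ahk4 (2.17 ± 0.25, adjusted p = 5.75e-08).

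In basal segments at 0 h, where 2.24% of all genes were lower and 0.843% higher in the mutant, 0 of 17 transport genes were called higher and 0 lower by edgeR (1 and 1 at an unadjusted p under 0.05, 1 and 0 by DESeq2). Lower in the mutant were 1 of 14 reductant genes, 4 of 17 ammonium genes and 2 of 24 regulators. No gene of these last 3 lists was higher by edgeR, and 0 were at an unadjusted p under 0.05 or by DESeq2. The genes lower in ahk3 ahk4 included RFNR2 (-1.11 ± 0.27, adjusted p = 0.0138; lost without mutant replicate 1 or 2), GDH1, a glutamate dehydrogenase (-1.89 ± 0.48, adjusted p = 0.018; lost in 4 alternative settings), LBD39 (-1.08 ± 0.24, adjusted p = 0.00557; lost without mutant replicate 3) and BT1 (-1.23 ± 0.32, adjusted p = 0.0236; lost in 5 alternative settings, among them the fit without WT replicate 2). The call for AMT1;2 rested on WT replicate 2 alone, with 0, 8.24 and 0 CPM in WT and no count in the mutant.

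**Figure D5:**
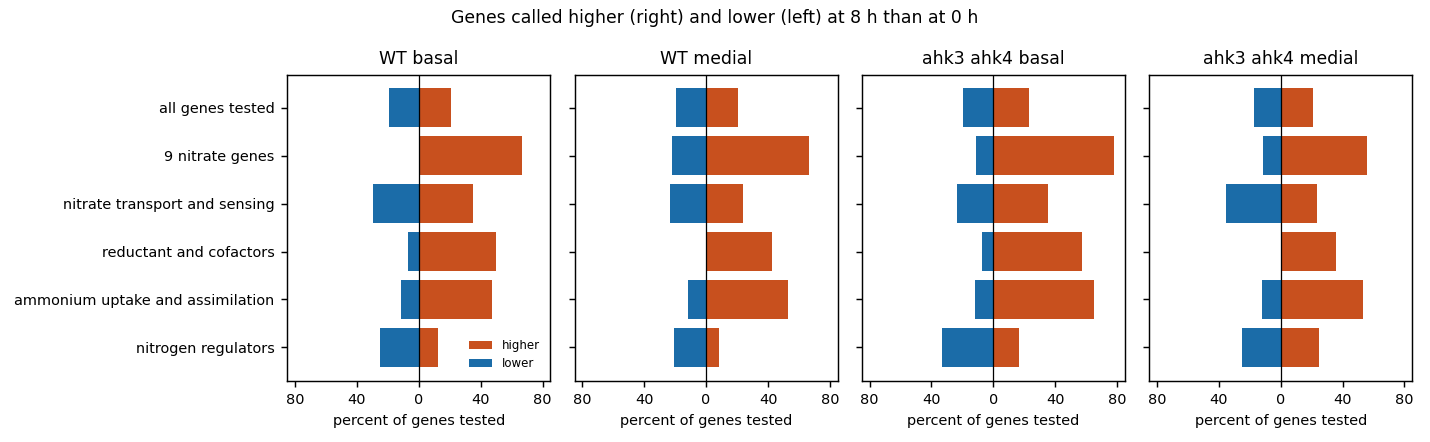
Share of tested genes called higher (right of 0) and lower (left of 0) at 8 h than at 0 h, in percent (x axis), for all genes tested, the 9 nitrate genes and the 4 lists (y axis), in each genotype and region. In WT basal segments 6 of 9 nitrate genes and 8 of 17 ammonium genes were higher, and 6 of 24 regulators were lower. Of all genes 20.7% were higher and 19.1% lower there.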

How the data were processed

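RNA was extracted with RNeasy columns and made into QuantSeq 3′ forward libraries, per the labels' protocols. The authors deposited 1 file of read counts per gene for each of 36 libraries; per the submitters' processing notes, HTSeq and DESeq2 were used, with no version stated. The aligner, build, annotation and strand setting were not given in the sources used here. Lines that name no gene, 4.59% to 62.2% of the reads of a library, entered neither library sizes nor tests. Assigned reads ranged from 6136167 to 13557332 per library, so a group of 3 libraries has a floor of 0.0864 to 0.125 CPM at 3 counts. Intervals and floors cover counting error only.

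Counts were analysed with edgeR 4.0.16 and limma 3.58.1 in R 4.3.3: filterByExpr, TMM factors, 1 model with 12 group means and a robust quasi-likelihood test, adjusted by the Benjamini-Hochberg method over 19819 genes in each of 32 contrasts (24 between groups and 8 interactions). P-values are two-sided. The procedure was tested on simulated data for WT basal segments at 8 h against 0 h alone. That simulation used the same spread for all genes and changed no gene of low counts, and it did not cover interactions. CPM were computed on TMM library sizes. Replicates were compared by a chi-square test of their counts, and none agreed within sampling noise (lowest chi-square per degree of freedom 9.76). Replicate numbers from the labels did not pair libraries across groups: in 0 of 24 contrasts was every pair's correlation of deviations over 0.1 (range -0.22 to 0.26).

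Alternatives were RLE factors, DESeq2 1.42.0, no filter on low counts, a replicate block, a covariate for reads outside genes, the compared groups alone and each compared library left out, and, chosen after seeing the data, both WT replicate 2 libraries at 0 h left out. The nitrate genes and lists were chosen with earlier results of these data known. All 9 were to be described, from each list up to 3 called genes with the smallest adjusted p per contrast were named, and for each nitrate gene the most similar genes by Pearson's r over 12 group means (log2 CPM, prior count 2). Gene names and sequences came from RefSeq TAIR10.1, in which 32548 of 32833 loci matched. HHO2 is named from its locus ID, since that table gives AT1G68670 no symbol. The promoter window ends at the gene start, shorter than first set, and GAATATTC was added after the sequences were read.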

Additional observations from a re-analysis of the deposited data

Results flagged for a closer look

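In 14 of 72 tests on the 9 nitrate genes the change over time differed between the regions of a genotype or between the genotypes in a region, by an interaction term in edgeR's quasi-likelihood model. Of all genes, 0.833% to 17.0% were called in these 8 comparisons. Values are differences of log2 changes. For NRT1.1 the basal change exceeded the medial one by 1.81 in WT from 0 to 8 h, where every basal library at 8 h was above and every medial library at 8 h below its 0 h group. In ahk3 ahk4 it did so by 2.25 from 0 to 8 h and 1.91 from 0 to 16 h. The NRT1.1 change in ahk3 ahk4 exceeded that in WT by 1.54 from 0 to 8 h and 1.65 from 0 to 16 h in basal segments, and by 1.1 from 0 to 8 h in medial segments. For NIA2 the mutant's change exceeded that of WT in basal segments by 1.79 from 0 to 8 h and 2.74 from 0 to 16 h, while in WT the basal minus the medial change from 0 to 16 h was -2.26. NRT1.1 and NIA2 started lower in mutant basal segments at 0 h, at -0.92 and -1.43 against WT. UPM1 differed from 0 to 16 h by 1.49 between the mutant's regions and by 1.65 between genotypes in basal segments. G6PD3 differed by 1.14 and 1.67 in the same comparisons. In basal segments G6PD3 too started lower in the mutant, at -1.45 against WT at 0 h, and stood at 0.22 at 16 h (adjusted p = 0.628, not called). HRS1 differed by 4.59 between the WT regions from 0 to 16 h, a value that rests on WT medial replicate 2 at 0 h. Of the 14 calls, 8 were kept in every alternative setting and 6 were lost in some. The HRS1 call was lost in 11 of 19 settings, UPM1 at 1.65 in 8, G6PD3 at 1.14 in 7 and NRT1.1 at 1.1 in 7. NRT1.1 at 1.91 and UPM1 at 1.49 each lost the call in 1 setting. With the share of reads outside genes in the model, they stood at 0.91 and 0.21.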

How the results depend on the processing

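The 9 nitrate genes gave 60 calls in 108 tests over time, 31 of 54 between regions, 11 of 54 between genotypes and 14 of 72 interactions. Among all genes, 2.7% to 24.7% were called higher and 2.92% to 22.2% lower per comparison over time. Between regions these shares were 5.15% to 13.5% and 6.71% to 13.0%, and between genotypes 0.161% to 2.61% and 0.131% to 3.16%. In interactions 0.833% to 17.0% were called. Leaving out 1 library at a time gave 57 to 64, 28 to 32, 7 to 11 and 12 to 15 calls on the nitrate genes in the same order. Interaction calls went to 21 with DESeq2, and genotype calls to 7 with no filter on low counts, to 6 with both WT replicate 2 libraries at 0 h left out (chosen after seeing the data) and to 7 without WT basal 16 h replicate 1 or replicate 3; the cause was not tested. In every alternative 52 of 60 calls over time, 18 of 31 between regions, 3 of 11 between genotypes (NIA2 and G6PD3 in basal segments at 0 h, NIA2 in basal segments at 16 h) and 8 of 14 interactions were kept. DESeq2 called 60, 31 and 13 in the other 3 sets. The genotype value of AMT1;2 in basal segments at 0 h went from -7.77 to 0 with both WT replicate 2 libraries at 0 h left out and ranged from -8.36 to 0 with 1 library left out. It was 0 without WT basal 0 h replicate 2, where no counts remain in either group. With the replicate number as a block the calls were 61, 31, 10 and 13; the numbers do not pair the libraries. The block ended the calls of NIA1 between genotypes in basal segments at 0 h (adjusted p = 0.0512) and of HRS1 in the WT region by time test (adjusted p = 0.0559), and gave 1 for NRT2.1 in WT basal segments at 8 h (adjusted p = 0.0338). Depth limits HRS1, NRT2.1 and NIA1, whose groups hold as few as 0 to 3 counts in medial segments.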
